A study of Mus musculus with 4 samples.

Results

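Non-coding RNA transcripts were measured on Agilent mouse arrays through probes whose RefSeq accession starts with NR_, the prefix that RefSeq gives to RNAs with no annotated coding sequence. Of 41174 probes other than controls, 410 carried such an accession, and these stood for 350 accessions. The transcripts described here were chosen by the well-above-background marks of the scanner software: they are those of the 180 probes that carried the mark on all 4 arrays, and they cover 158 accessions. Because the background marks come from the same spots as the signals, the presence of these RNAs in both groups was a condition of the choice and is not a result.

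The RNA came from Hepa1c1c7, a mouse hepatoma cell line. In the DEM group (n = 2) the cells had been given 100 µM diethyl maleate for 6 hours, and in the DMSO group (n = 2) they had been given the solvent dimethyl sulfoxide for 6 hours. Diethyl maleate is an electrophile that depletes glutathione and, according to the series title, was used as an activator of Nrf2, the transcription factor of the antioxidant response. The labels name no genetic change in either group, and both groups are the same cell line grown in the same medium. By the labels the RNA samples of a group were independent, but separate cultures are not mentioned. The p-values below therefore measure the spread between these RNA samples alone, and part or all of that spread may be technical. The extraction label speaks of liver, while the other labels name the cell line.

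Long non-coding RNAs are transcribed and spliced like messenger RNAs but are not known to be translated, and many stay in the nucleus. Some act as hosts: small nucleolar RNAs (snoRNAs), which guide the chemical modification of ribosomal RNA, are cut from the introns of host genes such as the Snhg family, and microRNAs are cut from hosts such as Mir22hg. Others are named for the coding gene that they run opposite to, or are transcribed pseudogenes, which resemble a coding parent. An array probe for a host reads the host transcript, and the mature microRNAs were not measured here.

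Of the microRNA hosts with a probe among the 180, Mir22hg had a higher signal on both DEM arrays and Mir100hg a lower one, as given further on, so the best known products of these 2 hosts are shown. The sequences are from RefSeq (GRCm38.p6), written 5′ to 3′ with the seed, bases 2 to 8, in capitals. On the plus strand, miR-22-5p lies at chr11:75463734-75463755, miR-22-3p at chr11:75463772-75463793, miR-100-5p at chr9:41531437-41531458 and miR-125b-5p at chr9:41581940-41581961.
mmu-miR-22-5p: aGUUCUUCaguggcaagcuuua
mmu-miR-22-3p: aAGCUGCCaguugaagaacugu
mmu-miR-100-5p: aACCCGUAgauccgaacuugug
mmu-miR-125b-5p: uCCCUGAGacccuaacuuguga
The 4 seeds differ from each other.

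The label of the set held for most of its probes but not for all. In the RefSeq gene table, 155 of the 180 probes matched 1 gene symbol, giving 134 symbols, and 25 probes with 21 accessions matched none and are named by accession. Of the matched probes, 103 belonged to genes that RefSeq classes as long non-coding RNA, 38 to transcribed pseudogenes, 4 to snoRNAs and 2 to antisense RNAs. A further 6 probes belonged to genes classed as protein coding, where the accession is that of a non-coding variant. The ribosomal RNA gene Rn28s1 and Rmrp, the RNA part of the RNase MRP enzyme, had 1 probe each.

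The 230 NR_ probes outside the rule were mostly dark. On no array was the signal well above background for 196 of them, and for 34 it was so on 1 to 3 arrays. At the edge of the rule, the 5 dimmest members, ranked by their lowest signal on any 1 array, had scaled signals of 14.6 to 42.9. The 11 NR_ probes that passed on 3 arrays had scaled signals of 7.82 to 123.5. The scaled signal is the processed intensity after the arrays were brought to a common 75th percentile. It compares arrays for 1 probe. An order of signals between probes, as in the dimmest probes, is one of spot brightness and not of RNA amount.

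The arrays were alike in quality. Between 20744 and 21659 probes per array (50.4% to 52.6%) were well above background, and 0 spots other than controls were saturated. Over the 180 probes the log2 signals correlated with r = 0.996 and 0.997 within the groups and 0.991 to 0.994 between them, as a description across probes. Of 33 known Nrf2 target genes, all coding, 29 were tested through a probe well above background on all 4 arrays, and of these 13 rose and 0 fell, with a median log2 difference of 0.81. Gsta1 and Gsta2, glutathione transferases, passed the filter through the DEM arrays alone and are not counted. Hmox1, heme oxygenase, was 23.4-fold higher with an adjusted p of 0.00354 (limma), and Nqo1, a quinone reductase, was 5.10-fold higher with an adjusted p of 0.00997. Of 17 hepatocyte and hepatoma genes, 9 were tested and 0 were called. Alb, Afp, Krt8 and Krt18 were well above background on all arrays, and Ttr, Apoa1, Hnf4a, Fgb and Ahsg on none. Of the markers of other cell types, 3 of 10 for macrophages and leukocytes, 6 of 10 for fibroblasts and stellate cells and 2 of 8 for endothelium were tested, and 0 were called.

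The question asked of the non-coding RNAs was which of them changed after 6 hours of DEM. Few did: 3 of the 180 probes rose and 0 fell at an adjusted p under 0.05 in limma, where the p was adjusted over all 21140 probes tested. The 3 were 1700001L05Rik, Zbtb11os1 and 1700084E18Rik, all classed as long non-coding RNAs. Their share of 1.67% stands beside 0.516% of the 19942 tested probes that were well above background on all 4 arrays, and the 0 falls beside 0.321%. Among all probes tested these shares were 0.61% and 0.402%. With counts of 3 and 0 these shares do not set the non-coding RNAs apart from other probes.

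Counts that rest on weaker criteria were also near the background. The DEM arrays both lay above the DMSO arrays for 41 probes (22.8%) and both below for 51 (28.3%), against 25% and 24.7% of all probes well above background on the 4 arrays, and 24.4% and 25.5% of all probes tested. At an unadjusted p under 0.05, 15 probes (8.33%) were higher and 20 (11.1%) lower, against 8.39% and 9.07% of the same probes and 8.52% and 10.1% of all probes tested. The median log2 difference of the 180 probes, DEM minus DMSO, was −0.04, against −0.01 over all probes tested, and it was 0.11 when arrays were scaled by their median, a scaling that moved the median of all probes to 0.14. The differences ran from −0.87 to 1.45, 1 probe lay beyond 1 in size, and 18 (10%) lay beyond 0.5, against 7.82% of probes well above background on the 4 arrays and 10.1% of all tested. The median log2 distance between the 2 arrays of a group was 0.14 for these probes and 0.13 for all probes tested.

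**Figure D1:**
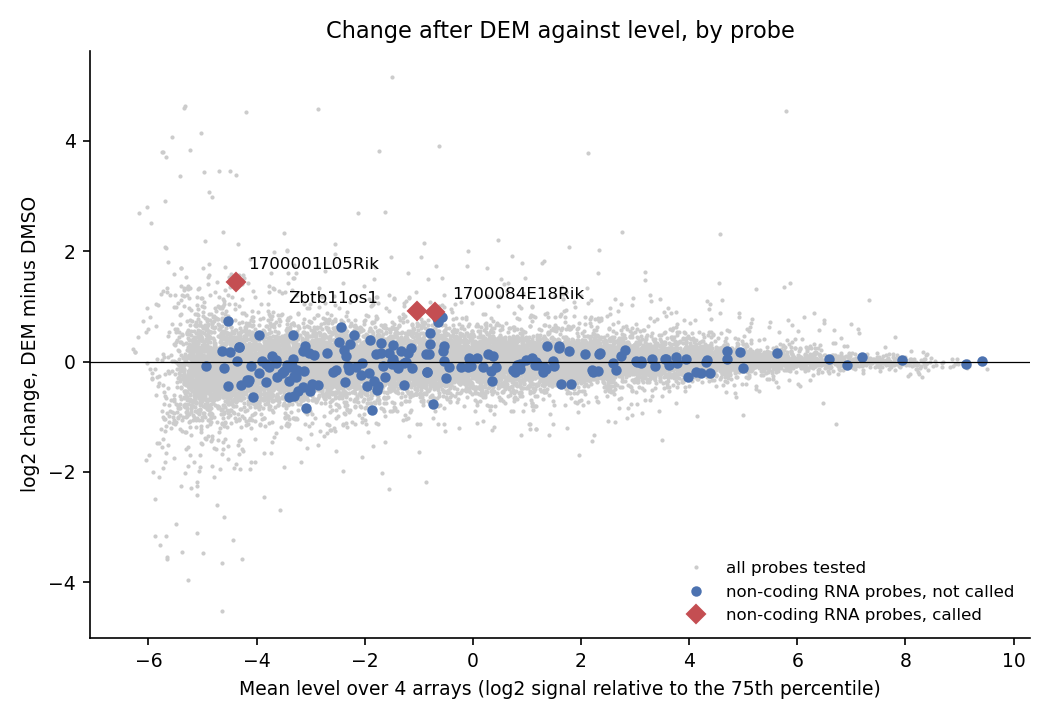
Difference in log2 signal, DEM minus DMSO (vertical axis), against the mean log2 signal over the 4 arrays relative to the 75th percentile (horizontal axis), for all 21140 probes tested in grey and the 180 non-coding RNA probes in blue. The 3 called probes, red diamonds, lie above the other non-coding RNA probes, and the remaining ones lie between −0.87 and 0.80.

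1700001L05Rik (NR_027980) had the largest difference of the 180 probes. This long non-coding RNA gene is known by its cDNA clone name. Its scaled signals were 14.9 and 15.9 on the DMSO arrays and 42.9 and 41.3 on the DEM arrays. The groups did not overlap, and each pair of arrays was close together. It rose 2.73-fold, a log2 difference of 1.45 ± 0.09 (SE, n = 2 and 2), with an adjusted p of 0.0246 (limma). By its lowest array, a DMSO array, the probe was among the 5 dimmest of the set. The other 2 probes of the same accession showed no such difference and were too dim to be tested. The first read 3.02 and 2.76 in DMSO and 3.18 and 3.08 in DEM and was well above background on no array. The second read 13.4 and 11.2 in DMSO and 13.8 and 18.4 in DEM and was well above background on 1 DEM array. Under normexp background correction, which adds an offset and so compresses dim probes, the log2 difference was 0.37 with an adjusted p of 0.0597. The call was lost without DMSO replicate 1 (adjusted p = 0.149) and without DMSO replicate 2 (adjusted p = 0.154), and held without either DEM replicate.

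Zbtb11os1 (NR_027965) runs opposite to Zbtb11, the gene of a zinc finger protein. The scaled signals were 191 and 187 in DMSO and 348 and 363 in DEM. Both DEM values were well clear of both DMSO values. It rose 1.88-fold, with a log2 difference of 0.91 ± 0.09 and an adjusted p of 0.0405 (limma). Zbtb11 itself did not show this: its 3 probes had log2 differences of 0.13, −0.03 and −0.12, and none was called.

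1700084E18Rik (NR_028299), also a long non-coding RNA known by a clone name, had scaled signals of 240.1 and 239.7 in DMSO and 424 and 476 in DEM. The DEM arrays again lay above the DMSO arrays without overlap. It rose 1.87-fold, with a log2 difference of 0.90 ± 0.10 and an adjusted p of 0.0489 (limma), close to the threshold. The calls of Zbtb11os1 and 1700084E18Rik were lost when any 1 of the 4 arrays was left out, with adjusted p-values of 0.0544 to 0.225 for Zbtb11os1 and 0.0503 to 0.237 for 1700084E18Rik. Over the 16 alternative analyses, 1700001L05Rik was called in 11, Zbtb11os1 in 10 and 1700084E18Rik in 9, and the difference stayed above 0 in all. Of the 16, the deposited value table held the same intensities and so only repeated the main result, calls included. With no filter on dim probes all 3 calls were lost, at adjusted p-values of 0.188, 0.200 and 0.213 (limma). With quantile normalization that of 1700084E18Rik was lost (adjusted p = 0.0569).

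The sequences around the starts of these 3 genes, 250 bases before to 50 after, were searched on both strands for the core of the antioxidant response element bound by Nrf2 (TGACNNNGC). They were also searched for the cAMP response element (TGACGTCA) and the C/EBP-ATF response element (TGATGNAAT). The windows are from RefSeq on GRCm38.p6 and the minus strand: chr15:83367248-83367547 for 1700001L05Rik, chr16:55974568-55974867 for Zbtb11os1 and chr2:30237582-30237881 for 1700084E18Rik. Each is written 5′ to 3′ with matches in capitals, because these are the promoters of the RNAs that rose.
1700001L05Rik: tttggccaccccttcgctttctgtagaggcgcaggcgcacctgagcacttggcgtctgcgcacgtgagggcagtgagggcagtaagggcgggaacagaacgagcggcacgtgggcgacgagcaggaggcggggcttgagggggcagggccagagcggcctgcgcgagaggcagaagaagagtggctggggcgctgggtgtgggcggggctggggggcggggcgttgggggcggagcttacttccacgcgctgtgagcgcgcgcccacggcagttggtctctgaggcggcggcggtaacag
Zbtb11os1: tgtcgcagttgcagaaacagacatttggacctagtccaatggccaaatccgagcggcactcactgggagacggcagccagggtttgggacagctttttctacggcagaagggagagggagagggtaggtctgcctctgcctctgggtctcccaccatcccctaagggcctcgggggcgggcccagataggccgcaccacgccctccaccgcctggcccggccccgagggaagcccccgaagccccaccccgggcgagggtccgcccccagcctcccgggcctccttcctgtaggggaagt
1700084E18Rik: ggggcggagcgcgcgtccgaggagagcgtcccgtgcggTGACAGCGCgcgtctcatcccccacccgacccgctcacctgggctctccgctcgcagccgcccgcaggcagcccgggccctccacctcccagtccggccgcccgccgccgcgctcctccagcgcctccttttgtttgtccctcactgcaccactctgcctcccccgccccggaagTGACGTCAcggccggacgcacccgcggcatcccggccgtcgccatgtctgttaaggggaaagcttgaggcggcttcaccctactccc
The window of 1700084E18Rik held 1 antioxidant response element core and 1 cAMP response element, which reads the same on both strands. The other 2 windows held none of the 3 motifs, which says only that these letters are not in these 300 bases. Of all 32851 windows in the table, 12.4% held the antioxidant response element core, 1.79% the cAMP response element and 0.965% the C/EBP-ATF element. Of the 102 windows of 86 genes in the set, 23 (22.5%) held the first, 3 (2.94%) the second and 0 the third. Overlapping windows of a gene, as for Snhg17, were each counted, and the shares were not compared by a test. Uncalled genes also held the first, such as Snhg8, with a lower mean in DEM, and Kcnq1ot1, with a higher one. A match is a match of letters and was not tested as a binding site.

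Mir22hg (NR_030711), the host transcript of miR-22, came next, just outside the threshold. Its scaled signals were 263 and 281 in DMSO and 454 and 493 in DEM. The groups did not overlap, and the gap between them was wider than that within either. The signal was 1.74-fold higher in DEM, with a log2 difference of 0.80 ± 0.10 and an adjusted p of 0.0557 (limma). It passed the threshold in 5 of the 16 alternative analyses, among them limma with an intensity trend (adjusted p = 0.00978) and the test over probes well above background on all 4 arrays (adjusted p = 0.0306).

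The promoter window of Mir22hg held none of the 3 motifs. The other genes of the microRNA host list with a probe in the set were Mir100hg, Mir99ahg and Mirt1. In the RefSeq table, the genes of the set that hold a microRNA are Mir22hg, Mir100hg, Snhg20 (miR-6516) and Taf1d (miR-7650), and the last 2 are described with the snoRNA hosts and the coding genes. Mir100hg, whose gene spans miR-100, let-7a-2 and miR-125b-1, read 316 and 553 in DMSO and 211 and 283 in DEM. Both DEM values were below both DMSO values, but the DMSO arrays differed by more than the groups' nearest values did. The log2 difference was −0.77 ± 0.31 with an adjusted p of 0.296 (limma). For Mir99ahg it was 0.10 ± 0.40, and for Mirt1, a transcript named for myocardial infarction that stood on the same list, −0.11 ± 0.11, both with groups that overlapped. Of 23 microRNA host genes listed, 6 had an NR_ probe and 4 a probe in the set. In limma 0 of these 4 were called, and their median log2 difference was −0.0046. At an unadjusted p under 0.05, 1 was higher, beside 8.52% of all probes tested.

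Hosts of snoRNAs lay mostly below 0, with 0 called in limma. The 7 probes stood for 6 genes, and 6 of the 7 had a lower mean in DEM. For 5 the groups did not overlap, where 25.5% of all probes tested were lower without overlap, and 3 were lower at an unadjusted p under 0.05, against 10.1% of all. With 7 probes these counts are a description. Their median log2 difference was −0.21, and it stayed below 0 under all 4 scalings tried, from −0.06 to −0.27.

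Snhg8, host of Snora24, had 2 probes. The first read 1893 and 1880.25 in DMSO and 1520 and 1325 in DEM. Its log2 difference was −0.41 ± 0.11 with an adjusted p of 0.162, and it was called in limma with a robust intensity trend (adjusted p = 0.0485). The second probe gave −0.52 ± 0.17 with an adjusted p of 0.224 (limma), again without overlap of the groups.

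Snhg17 read 9683 and 8874 in DMSO and 7638 and 7598 in DEM, a log2 difference of −0.28 ± 0.10. Snhg16, host of Snord1a, Snord1b and Snord1c, read 12154 and 11674 in DMSO and 10358 and 10238 in DEM, a log2 difference of −0.21 ± 0.09. In both, the DEM arrays lay below the DMSO arrays, and neither was called. Snhg7, host of Snora17 and Snora43, was at −0.15, while Snhg3, host of Snora73a and Snora73b, was at −0.01 and Snhg20 at 0.05. Of 24 snoRNA hosts listed, 8 had a probe, and the 2 that are coding genes were Eif4a2, a translation initiation factor, at −0.34 and Rack1, a ribosome-bound scaffold protein, at −0.07.

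The 4 probes for snoRNAs themselves also had lower means in DEM, with a median of −0.21. Snora69 read 184 and 156 in DMSO and 139 and 126 in DEM, which did not overlap. Its log2 difference was −0.35 ± 0.13 with an adjusted p of 0.250 (limma). Snord35b was at −0.29, Snora3 at −0.14 and Snord33 at −0.10, each with overlapping groups. None of the 4 was called, and 1 was lower at an unadjusted p under 0.05, beside 10.1% of all probes tested. As snoRNAs lie inside host genes, a probe of this kind can also read unspliced host RNA, and the share of that in these signals was not tested.

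**Figure D2:**
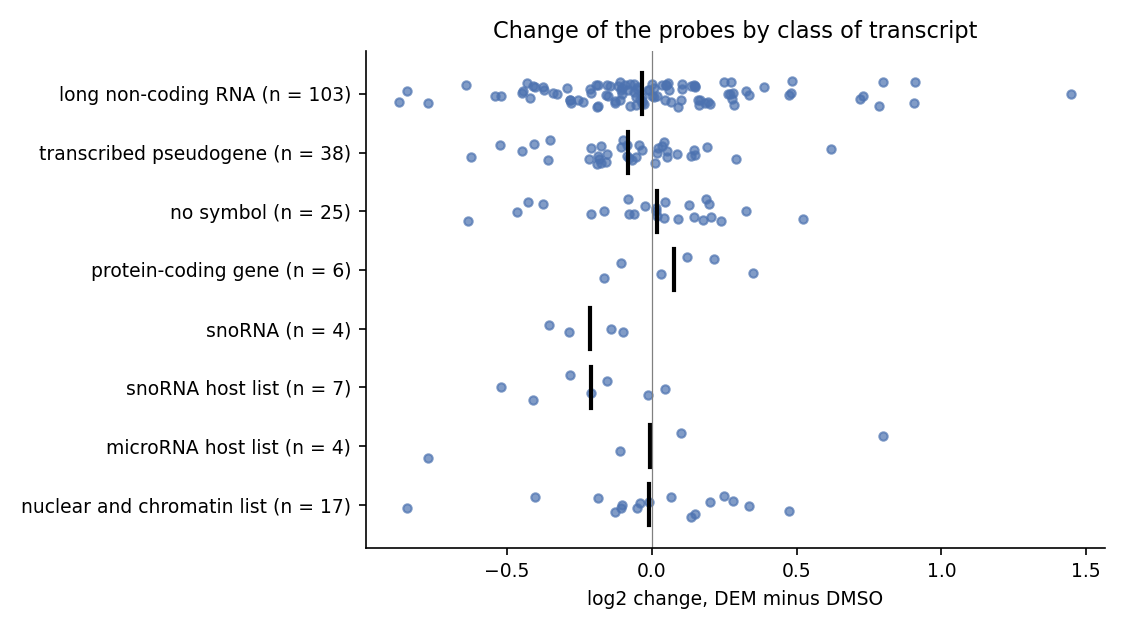
Difference in log2 signal, DEM minus DMSO (horizontal axis), of the non-coding RNA probes, 1 point per probe, for the 5 rows of RefSeq class or no symbol with over 2 probes and for 3 lists, with the median of each row as a black bar. The snoRNA and snoRNA host rows have medians of −0.21, and the other rows drawn have medians between −0.08 and 0.08.

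The list of nuclear and chromatin-associated RNAs, which also held the cytoplasmic Norad, showed no called difference. Of 28 listed, 11 had an NR_ probe and 9 had a probe in the set, with 17 probes in all. In limma 0 were called. At an unadjusted p under 0.05, 1 was higher and 0 were lower, beside 8.52% and 10.1% of all probes tested. The median over the 17 probes was −0.01, and with 1 probe per gene it was 0.15.

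Malat1, an abundant RNA of nuclear speckles, had 4 probes that did not go the same way. The probe with the brightest spots read 1723 and 1674 in DMSO and 1965 and 1937 in DEM, a log2 difference of 0.20 ± 0.09. Another read 88.8 and 107.4 in DMSO and 124 and 149 in DEM, a difference of 0.47 ± 0.15 with an adjusted p of 0.216 (limma). The third probe was at 0.13 ± 0.09. The fourth read 138 and 50.1 in DMSO and 48.9 and 44.1 in DEM, at −0.84 ± 0.50, where the value of DMSO replicate 1 stood apart from the other 3. This difference passed the threshold with spike-in scaling (adjusted p = 0.0249) and in no other alternative.

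Neat1, the scaffold of paraspeckles, read 1863 and 2459 in DMSO and 1800.5 and 1455 in DEM. The groups did not overlap, though narrowly so. The log2 difference was −0.40 ± 0.19 with an adjusted p of 0.350 (limma). Norad, a cytoplasmic RNA that binds Pumilio proteins, was at 0.25 ± 0.09, with 1464 and 1477 in DMSO and 1819.85 and 1676 in DEM.

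Xist, the RNA that coats the inactive X chromosome, had 4 probes at −0.18, −0.13, −0.05 and −0.01, and 3 of them changed sign under some alternative analyses. Tsix, its antisense partner, was at 0.15 ± 0.16. Tug1 had 3 probes at 0.28, −0.11 and −0.04, and Firre was at −0.10. Among imprinted RNAs, Kcnq1ot1 was at 0.33 ± 0.29 through 1 of its 6 probes, and Airn at 0.07 ± 0.20. A further Kcnq1ot1 probe, well above background on 3 arrays and so outside the set, read 12.8 and 79.2 in DMSO. In DEM it read 67.2 and 123.5. Another such Kcnq1ot1 probe read 15.3 and 26.2 in DMSO and 26.2 and 26.1 in DEM. Groups overlapped for both of these probes. The list of imprinted RNAs also held Xist and Tsix. Of its 15 RNAs, 8 had a probe and 4 a probe in the set, with 7 probes, of which 4 were for Xist. Of the 7, 0 were called or had an unadjusted p under 0.05, beside 8.52% higher and 10.1% lower of all probes tested. Their median was −0.01. Meg3 had 5 probes and was well above background on no array. Of 22 small structural RNAs listed, 2 had a probe, and Rmrp was in the set, at 1325 and 1074 in DMSO and 1191 and 1174 in DEM, a difference of −0.01 ± 0.13.

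Across the 19 transcripts with several probes in the set, 44 probes in all, the probes of 12 had the same sign. The median range of the log2 difference within a transcript was 0.11, and that of Malat1 was 1.32. Snhg8, 5530601H04Rik, Pisd-ps3 and 2610005L07Rik were below 0 in both probes of the set, and Xist in all 4. Above 0 in both were 2210409E12Rik, Gm5069, Rreb1, NR_003278, NR_027360, NR_027897 and NR_030673. A further tested probe of 2610005L07Rik, outside the set as it was well above background on 3 arrays, went the other way, at 1.08. It read 15.2 and 8.82 in DMSO and 22.7 and 26.4 in DEM.

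**Figure D3:**
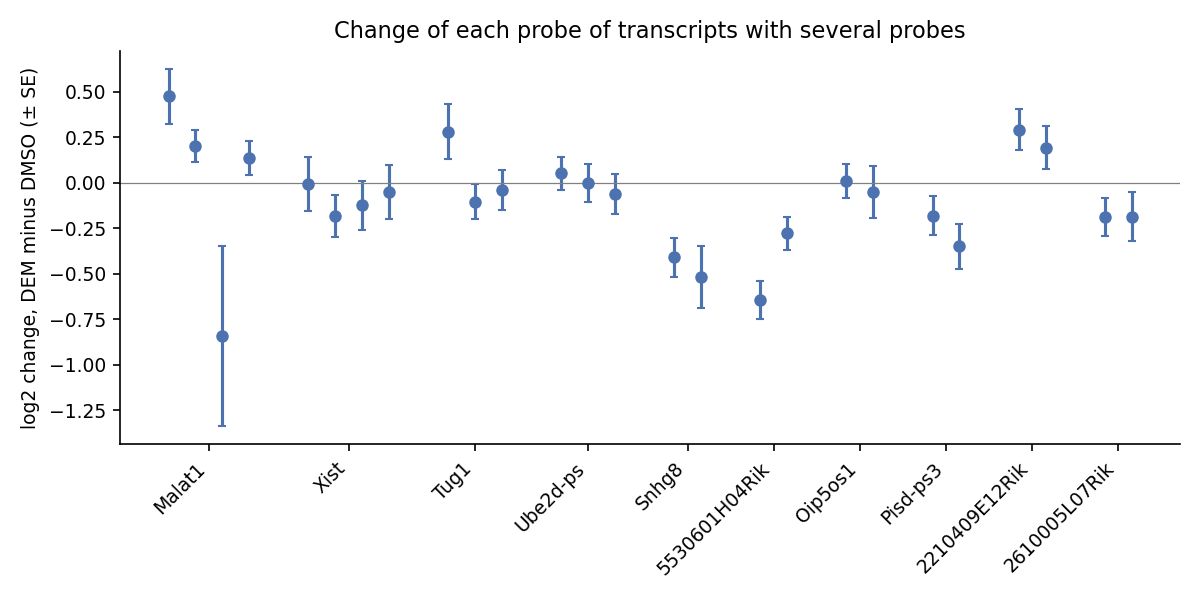
Difference in log2 signal, DEM minus DMSO, with its standard error (vertical axis), for each probe of 10 transcripts that have several probes in the set (horizontal axis). The 4 Malat1 probes spread from −0.84 to 0.47, while both probes of Snhg8 and both of 5530601H04Rik lie below 0.

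Transcripts named for running opposite to another gene, or classed as antisense RNA, gave 12 probes for 11 genes, Tsix among them. Of these probes 1, that of Zbtb11os1, rose and 0 fell, beside 0.61% and 0.402% of all probes tested. Such small counts are a description. The median of the 12 probes was −0.02, and it was 0.13 when arrays were scaled by their median. Map2k3os, opposite to the gene of a stress kinase activator, read 237 and 275 in DMSO and 376 and 515 in DEM. The groups did not overlap, but the DEM arrays differed widely from each other. The log2 difference was 0.78 ± 0.19 with an adjusted p of 0.143 (limma), and Map2k3 was at 0.45 ± 0.12 with an adjusted p of 0.160.

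Cep83os read 29.1 and 28.6 in DMSO and 41.1 and 39.4 in DEM, a log2 difference of 0.48 ± 0.09, and Cep83, a centrosomal protein gene, was at 0.11 ± 0.17. Stk35os1 was at −0.45 ± 0.11, with 190.3 and 176 in DMSO and 142 and 126 in DEM, and the 2 probes of Stk35, a kinase gene, were at −0.18 and −0.12. Rab10os was at 0.17, and Rab10, a small GTPase gene, at 0.33, 0.29 and 0.15. Appbp2os read 59.9 and 60.6 in DMSO and 52.5 and 46.8 in DEM, a difference of −0.28 ± 0.10. Oip5os1, a conserved RNA also called Cyrano, was at 0.01 and −0.05 through its 2 probes, with overlapping groups. Foxd2os at −0.05, Dlx6os2 at −0.07 and Zfhx2os at −0.09 also had overlapping groups. None of these probes was called.

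The genes next to each RNA were taken from the order of genes in the RefSeq table. Among 262 pairs of a transcript and its nearest tested gene on either side, over 133 genes, 0 of the neighbours were called in either direction. Among all probes tested 0.61% were called higher and 0.402% lower, so 0 calls do not set the neighbours apart. Each neighbour was read through 1 of its tested probes. Some genes, such as Myc, stood in several pairs, and some, such as Neat1, were in the set. The log2 differences of the pairs correlated with r = 0.13, as a description of pairs that were measured on the same 4 arrays. Beside 1700001L05Rik, Pacsin2, a gene of membrane trafficking, was at 0.56 ± 0.09 with an adjusted p of 0.0742 (limma), and Arfgap3 was at 0.09. Beside Mir22hg, Wdr81 was at 0.56 ± 0.11 and Tlcd2 at 0.45 ± 0.11. Beside 1700084E18Rik, Kyat1 was at −0.13 and Lrrc8a at 0.11, and beside Zbtb11os1, Rpl24, a ribosomal protein gene, was at 0.05.

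**Figure D4:**
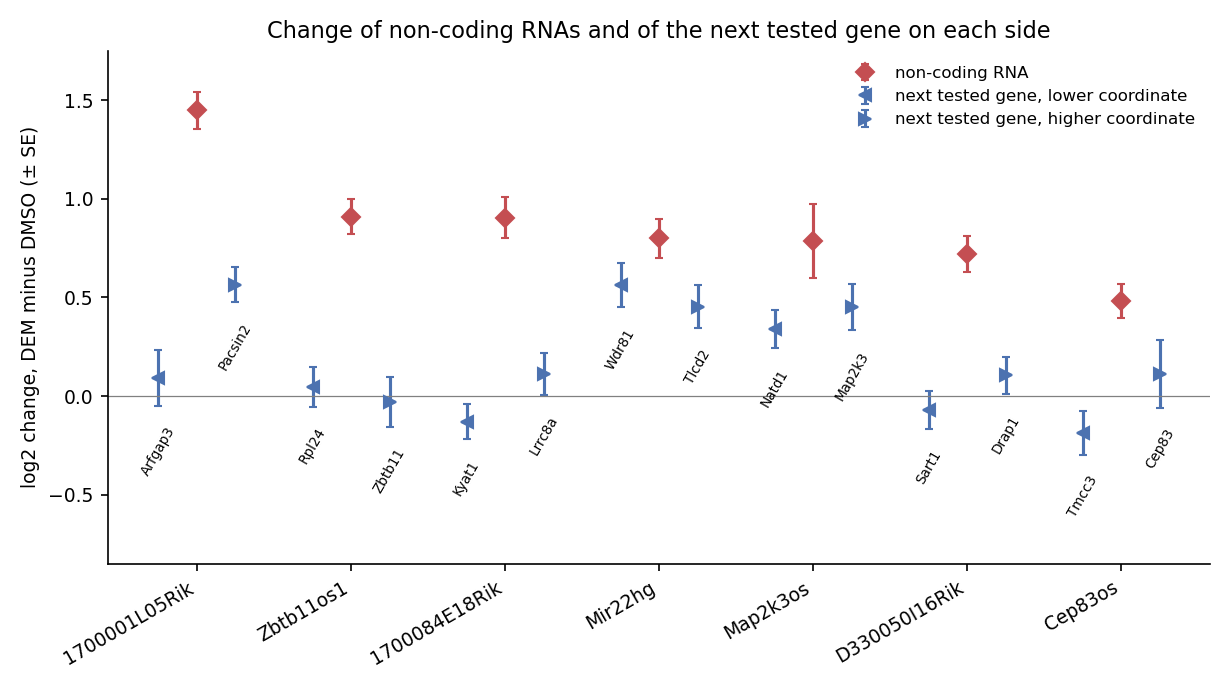
Difference in log2 signal, DEM minus DMSO, with its standard error (vertical axis), for 7 non-coding RNAs (red) and for the nearest tested gene at lower and at higher coordinates (blue). The neighbours of 1700084E18Rik and Zbtb11os1 lie between −0.13 and 0.11, and Pacsin2, Wdr81 and Tlcd2 lie between 0.45 and 0.56.

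The long non-coding RNA class as a whole, 103 probes of 89 genes, held all 3 calls, beside 0.61% of all probes tested called higher. At an unadjusted p under 0.05, 11 of its probes were higher and 12 lower, beside 8.52% and 10.1% of all, so these counts were near the background. Its median was −0.03, or 0.11 when arrays were scaled by their median. Those with the largest differences that missed the threshold are described next.

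D330050I16Rik read 275 and 257 in DMSO and 433 and 443 in DEM. The groups were apart, with a log2 difference of 0.72 ± 0.09 and an adjusted p of 0.0581 (limma). It passed the threshold in 5 of 16 alternative analyses. Its gene overlaps Sart1, a splicing factor gene, which was at −0.07.

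1700028J19Rik, another of the dimmest 5, read 19.03 and 16.6 in DMSO and 31.0 and 28.1 in DEM, a difference of 0.73 ± 0.12 with an adjusted p of 0.0787 (limma). 4930515G01Rik was at 0.39 ± 0.13 with an adjusted p of 0.241. NR_027828, which has no symbol in the table, was at 0.52 ± 0.11 with an adjusted p of 0.119.

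On the lower side, Phxr4 had the largest difference, with 158 and 245 in DMSO and 88.9 and 130.5 in DEM. The highest DEM value lay below the lowest DMSO value, but both groups were wide. The log2 difference was −0.87 ± 0.29 with an adjusted p of 0.227 (limma), and it passed the threshold in 1 of 16 alternatives, spike-in scaling (adjusted p = 0.0182). 5530601H04Rik read 59.9 and 66.4 in DMSO and 41.8 and 39.0 in DEM through its first probe, a difference of −0.64 ± 0.10 with an adjusted p of 0.0798. Its second probe read 47.4 and 47.8 in DMSO and 40.5 and 38.1 in DEM, a difference of −0.28 ± 0.09. Both probes were lower on both DEM arrays.

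3930402G23Rik read 76.9 and 82.2 in DMSO and 54.3 and 55.0 in DEM, a difference of −0.54 ± 0.09 with an adjusted p of 0.0848 (limma). Among accessions without a symbol, NR_028086 was at −0.64 ± 0.16 and NR_030739 at −0.47 ± 0.10. None of these was called.

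**Figure D5:**
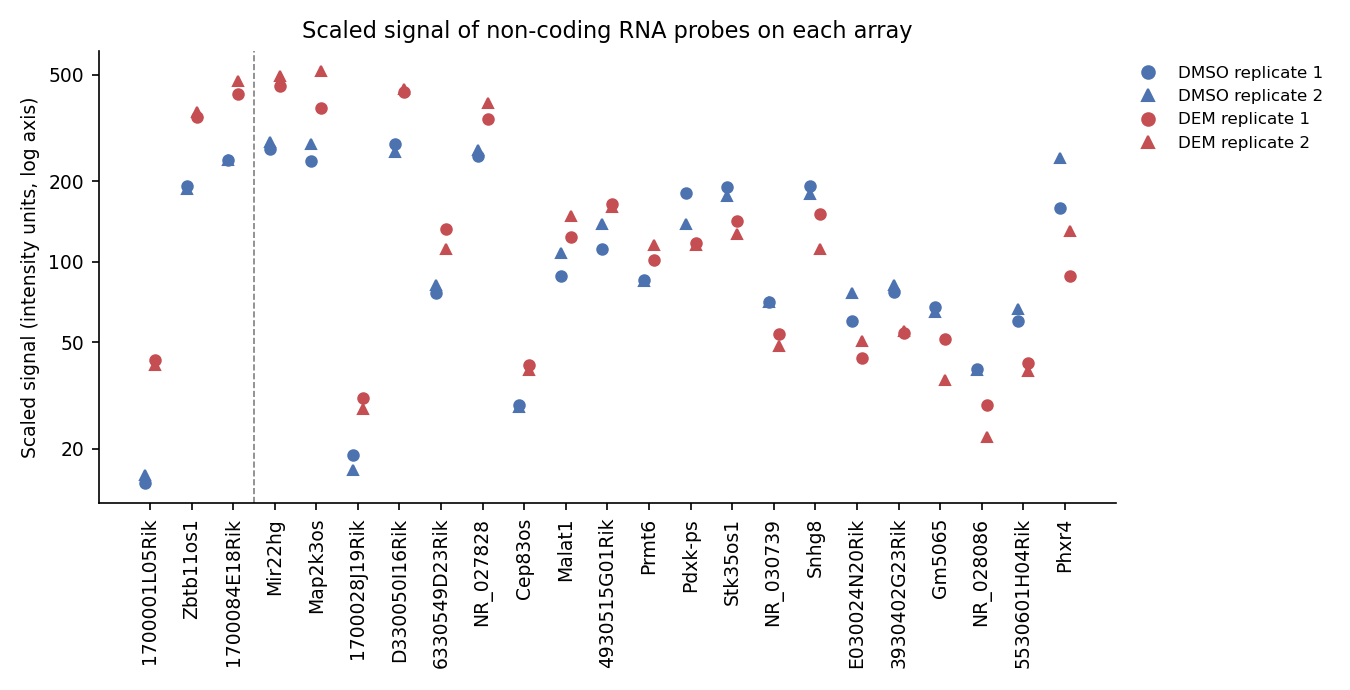
Scaled signal in intensity units on a log axis (vertical) on each of the 4 arrays, for the 3 probes that rose (left of the dashed line) and the 20 others with the largest differences among those with groups that do not overlap and an unadjusted p under 0.05, in order of their log2 difference. Blue marks are DMSO and red marks DEM, circles replicate 1 and triangles replicate 2. The groups are apart in all 23 probes, which for the 20 was a condition of the choice, while the 3 were chosen by adjusted p. The 2 arrays of a group lie farthest from each other for Phxr4.

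Transcribed pseudogenes gave 38 probes, with a median of −0.08 and 0 called in limma. At an unadjusted p under 0.05, 1 was higher and 5 were lower, beside 8.52% and 10.1% of all probes tested. Their probes may also bind the transcript of the coding parent, so their values are uncertain. 6330549D23Rik was at 0.62 ± 0.12 with an adjusted p of 0.111 (limma), reading 76.5 and 82.0 in DMSO and 133 and 111 in DEM. Gm5065 was at −0.62 ± 0.19 and E030024N20Rik at −0.52 ± 0.16, both with groups that did not overlap. Pdxk-ps was at −0.45 ± 0.16, and the 3 probes of its parent Pdxk, pyridoxal kinase, were at −0.43, −0.26 and −0.01. Both probes of Pisd-ps3 were below 0, at −0.35 and −0.18, as were those of Pisd, at −0.22 and −0.07.

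The 25 probes without a symbol had a median of 0.02, and 0 were called in limma. At an unadjusted p under 0.05, 2 were higher and 2 were lower, beside 8.52% and 10.1% of all probes tested. Of the 6 probes for non-coding variants of coding genes, 0 were called. At an unadjusted p under 0.05, 1 was higher, beside 8.52% of all probes tested. For Prmt6, an arginine methyltransferase gene, this probe read 85.5 and 84.4 in DMSO and 102 and 115 in DEM, a log2 difference of 0.35 ± 0.11 with an adjusted p of 0.196 (limma). The 2 other Prmt6 probes went the other way, at −0.44 ± 0.09 and −0.45 ± 0.13, and none of the 3 was called. Taf1d, which carries 6 snoRNA genes in the table, was at −0.16 through this kind of probe and at −0.55 and −0.10 through its other 2. 1110038B12Rik, a long non-coding RNA whose gene holds Snord52, was at −0.11 ± 0.12 with overlapping groups. The rRNA probe Rn28s1 was at 0.14 ± 0.11.

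Among the NR_ probes outside the rule, 19 had been detected well above background on 2 or 3 arrays and entered the fit. For 4 of them the filter was passed only through the arrays of the group with the higher signal, so it depended on the difference itself, and their values are given as a description with no test. Wbscr25 (NR_026907), picked out after its values were seen, had scaled signals of 3.11 and 4.74 in DMSO, where it was not well above background on either array, and 79.2 and 58.5 in DEM. As only a bound exists in DMSO, it was at least 5.27-fold higher in DEM, where the bound on each DMSO array is whichever is higher, the array's lowest signal among detected probes or that of the probe itself. The 3 probes detected on both DMSO arrays and neither DEM array were those of 4930465K10Rik, 9530036O11Rik and BC064078. With the bound set on the DEM arrays, their group means were at least 1.29-fold, 1.14-fold and 1.03-fold higher in DMSO. These bounds do not cover the spread between the arrays of a group. For 9530036O11Rik the groups overlapped, with 22.02 and 13.22 in DMSO and 15.004 and 12.45 in DEM. 4930465K10Rik read 20.6 and 18.5 in DMSO and 15.6 and 10.9 in DEM. BC064078 read 18.03 and 13.02 in DMSO and 5.15 and 5.96 in DEM.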

How the data were processed

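Per the file headers, 4 one-colour (Cy3) Agilent arrays of design 014868, annotated on mm9, were scanned and quantified by Agilent Feature Extraction 10.7.3.1 (protocol GE1_107_Sep09), which made the deposited processed intensity after its own background subtraction. The deposited value table held the same intensity for all 45018 spots of each array, with medians of 13.8 to 16.2. All 4 arrays lay on 1 slide with 1 scan time, so neither could be tested as a batch. Group and replicate number came from the titles. The number of arrays limits the precision.

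From log2 of the intensity each array's 75th percentile over 43379 spots was subtracted. Outlier spots were dropped and spots of a probe averaged, which left out 22 probes. Probes well above background on at least 2 arrays were fitted with lmFit and eBayes (limma 3.58.1, R 4.3.3), all 4 arrays together with no covariate, and p-values were adjusted by Benjamini-Hochberg, with a threshold of 0.05. SE is limma's moderated standard error. The fit was tested on simulated data.

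Named were all called probes, the largest differences in each direction among uncalled probes with an unadjusted p under 0.05 and groups that do not overlap (up to 10 each), the largest of each class and list, and 10 known RNAs (Gas5, Snhg1, H19, Meg3 and Mir17hg had no probe in the set). Members and lists were chosen with earlier results of these data known. Symbols, classes, gene order and sequences came from RefSeq tables (GRCm38.p6), and no coordinates of the array's build were used. The 16 alternatives changed background correction, scaling, value source, filter, probe summary, variance model, replicate block or the arrays used. Normexp used the median spot signal, with an offset of 50.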

Additional observations from a re-analysis of the deposited data

How the results depend on the processing

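With 2 arrays per group, the number of calls depended on the processing. Against 3 non-coding RNA probes called higher, there were 6 with normexp, 7 with median scaling, 6 with the filter on all 4 arrays, 6 with an intensity trend, 7 with a robust trend, 0 with no filter (13 at an unadjusted p under 0.05), and 0 to 1 with 1 array left out. Against 0 called lower, there were 2 with spike-in scaling and 1 with a robust trend. Over all probes, 129 were called higher and 85 lower. These became 555 and 477 with normexp, 506 and 200 with median scaling, 264 and 460 with spike-in scaling, 278 and 226 with the filter on all 4 arrays, 524 and 399 with a trend, and 643 and 514 with a robust trend. With quantile normalization 48 were lower, and with no filter there were 0 and 0 (1642 and 2472 at an unadjusted p under 0.05). Without 1 array there were 0 to 166 higher and 0 to 147 lower. The share of calls that were higher was 60.3%, against 71.7% with median scaling and 36.5% with spike-in scaling. The same replicate number did not pair the arrays by the labels, and the deviations of same-numbered arrays correlated at 0.15. Because each group has 2 arrays, both pairs give this same value by construction. With the replicate block 0 non-coding RNA probes were called, and over all probes 14 were called higher and 3 lower.

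The median log2 difference of all 180 probes became 0.11 with median scaling, and that of long non-coding RNAs 0.11, with −0.10 under spike-in scaling. Probes of coding genes (0.08) moved to 0.22 with median scaling, −0.16 with 1 probe per gene and −0.17 with the mean of a gene's probes. The snoRNA hosts moved to −0.065 and −0.27 with median and spike-in scaling, imprinted RNAs to 0.14 with median scaling and −0.18 to 0.16 without 1 array, nuclear RNAs to −0.15 to 0.16 without 1 array, and antisense transcripts to 0.13 with median scaling, −0.081 with spike-in scaling and −0.011 to 0.078 with 1 array left out. Signs turned for Prmt6 (−0.18) and 3 Malat1 probes (−0.0087) with the mean of a gene's probes, and for Tsix without DEM replicate 2, within a range of −0.042 to 0.34 with 1 array left out. They also turned for Xist probes with median scaling (0.020, 0.095 and 0.14), normexp (0.00068) and 1 array left out (−0.18 to 0.082 and −0.18 to 0.16). Rmrp turned with normexp (0.12), median scaling (0.13) and without DMSO replicate 1 (range −0.16 to 0.14). The causes were not tested. Where an array was left out, the lone array of its group was assumed to vary like the others. The value table gave the same numbers as the scanner files, since its values are equal.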
